A study of Mus musculus with 8 samples.

Results

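The genes described here encode the membrane repair proteins of muscle: the ferlins dysferlin (Dysf) and myoferlin (Myof), the calpains Capn1, Capn2 and Capn3, the annexins Anxa1, Anxa2, Anxa5 and Anxa6, and the tripartite motif protein Trim72. A probe was taken when the platform annotation gave it to 1 gene only, with its symbol or an older synonym among these names. That gave 9 of the 10 genes, out of 14510 genes named in the series, and 15 of the 31769 deposited probes. No probe carried the name Trim72, so its expression was not analysed here, and it enters only the search of promoter sequences. Of the 15 probes, 13 had a value on at least 1 array and 10, from 9 genes, had the 3 values in each group that the test required. Those that could not be tested were 3 of the 4 Dysf probes, 1 of the 3 Capn3 probes and 1 of the 2 Capn1 probes.

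The samples were C2C12 cells, a mouse myoblast line whose cells leave the cycle and fuse into myotubes in low serum. The 4 Neo samples came from cells stably selected with a retrovirus encoding Neo, and the 4 HDAC4 samples from cells stably selected with an HDAC4-Neo encoding retrovirus, which delivers the class IIa histone deacetylase HDAC4. Both were grown to 90% confluence and then held in 2% horse serum for 4 days. Total RNA in Cy5 was hybridised on each array against a murine reference RNA in Cy3, which the labels trace to liver, and no array had the dyes swapped. The study asked what HDAC4 does to expression in differentiated muscle cells, and its title names the dystrophin-glycoprotein complex. No label gives the promoter that drove HDAC4, or says whether the samples of a group were separate cultures. The p-values therefore rest on a spread between samples that may be technical.

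A muscle fibre tears during contraction and closes the tear with vesicles and membrane patches drawn to the inflow of calcium. Dysferlin and myoferlin are large tail-anchored proteins with many calcium-binding C2 domains that act in vesicle fusion, and annexins bind acidic phospholipids in the presence of calcium and gather at the wound. Calpains are calcium-activated cysteine proteases. Capn1 and Capn2 are made in most tissues, whereas Capn3 is largely confined to skeletal muscle, where it binds titin. Loss of DYSF or CAPN3 causes limb-girdle muscular dystrophy in humans. HDAC4 binds MEF2, a transcription factor of muscle genes, and represses its targets.

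Calpain 3 was the member with the largest difference, and RefSeq lists a pair of starts for it. The 250 bases before each start are shown on the plus strand of GRCm38.p6, because this gene held the only match among the members to the MEF2 consensus, which is written in capitals.
Capn3, chr2:120463343-120463592: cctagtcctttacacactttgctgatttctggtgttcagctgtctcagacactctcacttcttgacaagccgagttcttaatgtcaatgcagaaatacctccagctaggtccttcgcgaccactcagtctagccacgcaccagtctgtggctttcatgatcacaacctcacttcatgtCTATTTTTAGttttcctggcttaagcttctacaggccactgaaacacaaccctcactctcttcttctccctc
Capn3, chr2:120476659-120476908: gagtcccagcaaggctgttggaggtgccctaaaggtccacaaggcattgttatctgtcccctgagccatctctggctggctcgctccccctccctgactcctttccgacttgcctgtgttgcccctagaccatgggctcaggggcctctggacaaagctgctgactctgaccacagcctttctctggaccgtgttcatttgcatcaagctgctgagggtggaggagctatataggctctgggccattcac
The match, CTATTTTTAG, ended 63 bases before the first of these starts, and the second stretch held none. Both strands were searched, and a match to the consensus is a description and not a shown site of binding. Of 32851 promoter stretches of this length in the RefSeq table, 2.92% held a match. Promoters of 9 members were in the table, 12 stretches in all, and 1 held the MEF2 consensus, 6 the E box CANNTG and 0 the CArG box, against 66.2% and 1.47% of all stretches for the last 2 motifs. Anxa6 had no entry. The annotation does not say which transcript a Capn3 probe measures.

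All values below are log2 ratios of the cells over the reference, with each array centred on its median. This direction is likely and not stated, and it was read from muscle genes: the creatine kinase gene Ckm lay between 9.03 and 9.82 on the 8 arrays. The arrays had between 19248 and 22193 values in Neo and between 17014 and 18521 in HDAC4. The arrays numbered 1 stood apart in both groups: they correlated at 0.94 with each other and at 0.89 to 0.90 with any other array, while the other arrays correlated at 0.93 or more among themselves. No probe is named for Hdac4, so the labels were not checked against the introduced gene. Where 10 times the ratio is a whole number of at least 10, the reference signal appears to have been set to a floor, and the value then depends on the signal of the cells alone. This floor is inferred from the values. Ratios were rounded, so that from a ratio of 100 10 times the ratio is whole whatever the reference was, and a floor cannot be told there. Between ratios of 10 and 100, rounding alone makes 10% of values whole and 59.8% were; between 1 and 10 it makes 1% whole and 17.8% were. For 206 probes every array was at the floor; their median difference was -0.55 (HDAC4 minus Neo), and 90.3% of them were lower in HDAC4, against 48.8% of 13854 tested probes never at the floor. The 161 of them with every ratio below 100 had a median of -0.57, with 93.8% lower, and the other 45 had -0.26, with 77.8% lower. The value of -0.55 is called the floor offset below. Whether it is technical or a lower expression of these genes in HDAC4 was not tested. Fits with the offset removed are therefore alternatives and not corrections.

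In limma, 21 of 16748 tested probes passed an adjusted p of 0.05, which is 0.125% of them, with 20 lower and 1 higher in HDAC4. With the replicate number as a block 9 passed (0.0537%), with the arrays numbered 1 as a batch 108 (0.645%) and without those arrays 323 (1.93%). No member probe was among the 21. At an unadjusted p under 0.05, 2 of the 10 member probes were lower, of Capn3 and Anxa6, and 0 were higher, or 20% against a background of 7.03% of all tested probes in either direction. With the replicate block 3 were, Capn3 and Anxa6 lower and Anxa2 higher, against a background of 11.5%. The groups did not overlap in 1 member probe, which was lower in HDAC4, against 5.25% of all tested probes in either direction and 3.18% lower in HDAC4. The difference was below 0 in 7 of the 10 probes, with a median of -0.14, and below 0 in 50.6% of all tested probes, with a median near 0 (-0.0036). With the floor offset removed 5 of the 10 were lower, with a median of 0.00076, against 7692 of all 16748 probes. With floor values left out 3 of 6 were lower, with a median of 0.0052, against 7345 of 15108.

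**Figure D1:**
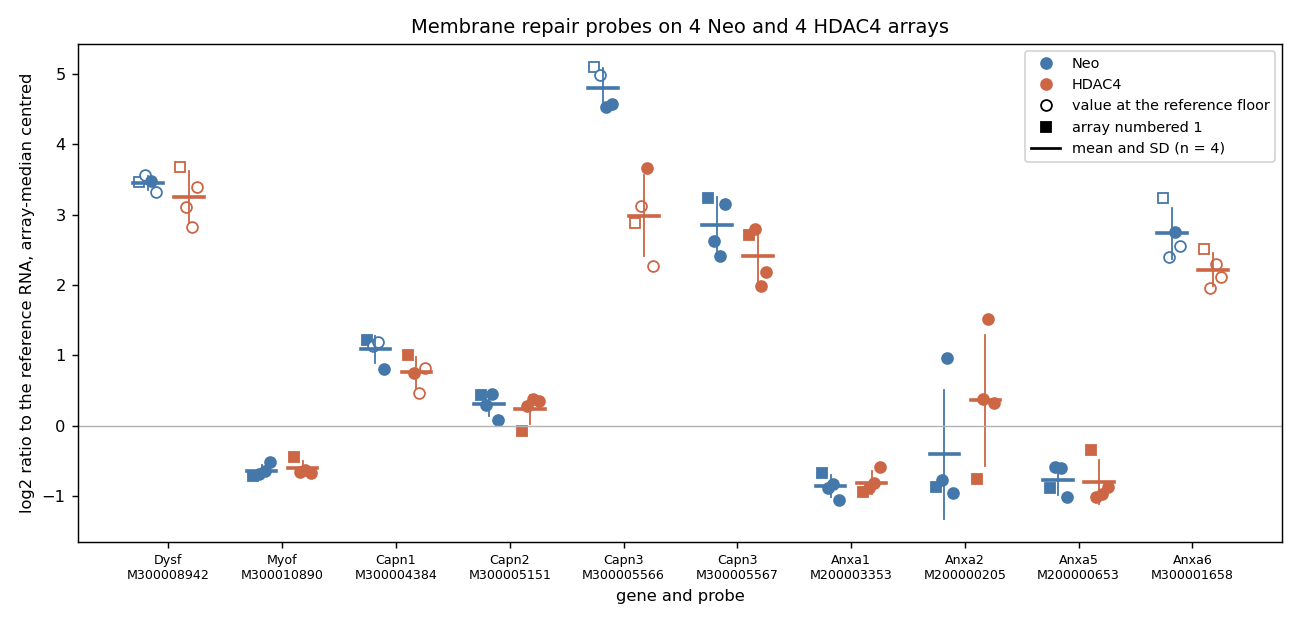
Log2 ratio to the reference RNA (vertical axis, array-median centred) of the 10 tested member probes on 4 Neo (blue) and 4 HDAC4 (orange) arrays; lines give the mean and SD, open symbols are values at the reference floor and squares the arrays numbered 1. The 4 HDAC4 values of Capn3 probe M300005566 lie between 2.27 and 3.66, below the 4 Neo values, which lie between 4.52 and 5.10, and in the other 9 probes the groups overlap.

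Capn3, the muscle calpain, gave the lowest HDAC4 values against Neo. Its probe M300005566 stood at 5.10, 4.99, 4.52 and 4.57 on Neo arrays 1 to 4 and at 2.88, 3.12, 3.66 and 2.27 on HDAC4 arrays 1 to 4. All HDAC4 values were below all Neo values. It follows that the HDAC4 array was the lower in 4 of 4 same-numbered pairs, by between 0.87 and 2.30. Neo averaged 4.79 ± 0.29 (SD, n = 4), against 2.98 ± 0.58 (SD, n = 4) for the HDAC4 arrays. That is a level 3.51-fold lower in HDAC4 (log2 difference -1.81 ± 0.28, SE; 95% interval -2.44 to -1.19). The adjusted p was 0.0577 in limma, just above the threshold, and the exact two-sided permutation p was 0.0286, the smallest that 4 against 4 arrays allow. Of the 16748 probes 19, this one included, had a difference as low or lower, and it was 24th when all were ordered by p.

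Whether Capn3 passed depended on the setting. Its limma adjusted p was 0.0337 when a term for the arrays numbered 1 was fitted, 0.0441 after quantile normalization and 0.0481 without HDAC4 replicate 3. The range was 0.0337 to 0.416 over 20 alternatives, among them the means over the Capn3 probes given below. In none of these was the sign different, and the difference lay between -2.04 and -0.74. In the alternatives that fitted this probe alone it lay between -2.04 and -1.38, with an adjusted p of up to 0.186. With the replicate block the difference was the same and the adjusted p was 0.0714. The reference floor bears on this probe: 2 of 4 Neo values and 3 of 4 HDAC4 values were at it. On that scale the cells' signal was 347 and 318 units on Neo arrays 1 and 2 and 74, 88 and 49 units on HDAC4 arrays 1, 2 and 4. Both Neo values lie where rounding alone makes 10% of values whole. With the floor offset taken off, the difference was -1.40 (adjusted p = 0.135), and with the offset of the 161 probes below a ratio of 100 it was -1.38 (adjusted p = 0.160). Of those 161 probes, 7 had a difference as low as that of Capn3.

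The other Capn3 probes gave different pictures. Probe M300005567, which was never at the floor, stood at 3.23, 2.62, 2.41 and 3.15 in Neo and at 2.70, 2.80, 1.98 and 2.18 in HDAC4. These groups overlapped, with a difference of -0.44 ± 0.25 (SE; 95% interval -0.99 to 0.12; limma adjusted p = 0.815). HDAC4 was lower in 3 of 4 pairs. Subtracted from M300005566 on each array, it left 1.94 ± 0.40 (SD, n = 4) for Neo against 0.57 ± 0.75 (SD, n = 4) for HDAC4. The gap between the probes was thus smaller by 1.38 in HDAC4 in a comparison chosen after the values were seen (exact permutation p = 0.0571, two-sided), and HDAC4 replicate 3, at 1.68, lay within the Neo range of 1.42 to 2.36. Probe M300005565 had values on Neo replicates 1 and 4 only, 0.57 and 2.84, and none in HDAC4. A mean over whichever Capn3 probes had a value on an array had a difference of -0.74 (limma adjusted p = 0.416). That mean takes in M300005565 on Neo replicates 1 and 4 only, so it moves with what is missing. With each probe centred first, which leaves M300005565 out, the difference was -1.12 (limma adjusted p = 0.104).

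By a root mean square difference between profiles centred on their own mean over 8 arrays, the named genes most like Capn3 probe M300005566 were Csrp3 at 0.40, Myh7 at 0.41 and Mybpc2 at 0.42 log2 units. The median over 9570 named probes was 1.02. Csrp3 encodes a Z-disc protein, Myh7 the slow and cardiac myosin heavy chain, and Mybpc2 the fast myosin-binding protein C. Csrp3 differed by -1.56 (limma adjusted p = 0.0214), Mybpc2 by -1.59 (adjusted p = 0.0352) and Myh7 by -1.50 (adjusted p = 0.0619). These genes were chosen for their likeness over all 8 arrays, so that their lower HDAC4 values follow from the choice and are a description only. Csrp3 had 8, Mybpc2 7 and Myh7 6 of 8 values at the reference floor, all with ratios below 100. The 250 bases before their RefSeq starts held no match to the MEF2 consensus.

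**Figure D2:**
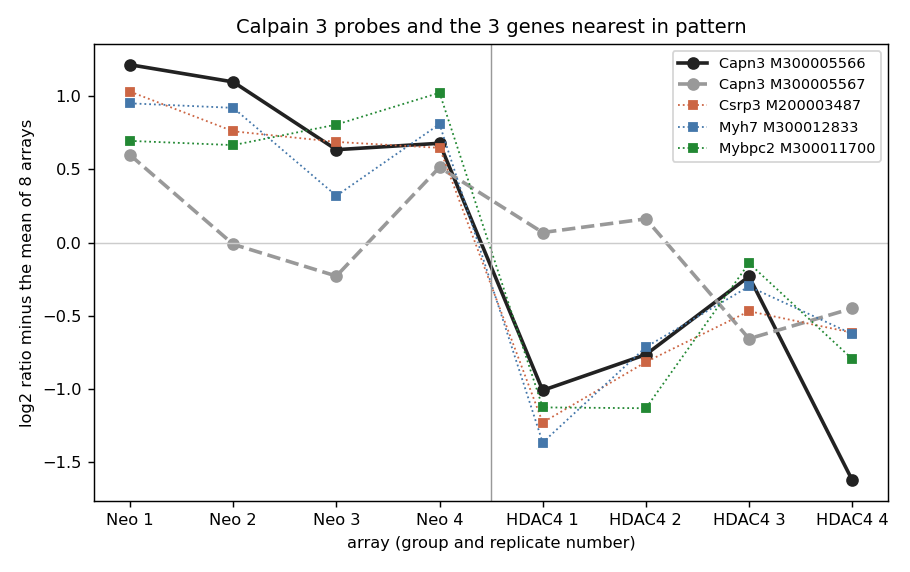
Log2 ratio minus the probe's mean over 8 arrays (vertical axis) on each array (horizontal axis) for the Capn3 probes M300005566 and M300005567 and for Csrp3, Myh7 and Mybpc2; lines join the points of a probe and imply no order of the arrays. Probe M300005566 and the 3 other genes are above 0 on all Neo arrays and below 0 on all HDAC4 arrays, as the choice by likeness requires, and probe M300005567 is not.

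Capn1 and Capn2, the calpains found in most tissues, did not pass. Capn1 probe M300004384 stood at 1.21, 1.13, 1.19 and 0.80 in Neo and at 1.001, 0.74, 0.46 and 0.82 in HDAC4. Only Neo replicate 4 lay among the HDAC4 values, and the difference was -0.33 ± 0.16 (SE; 95% interval -0.68 to 0.029; limma adjusted p = 0.759; exact permutation p = 0.0857). With the floor offset removed it was -0.05. The second Capn1 probe, M200002319, spread widely, from 0.26 to 1.22 in Neo, and had 2 HDAC4 values, 0.71 and 0.41. Capn2 lay between 0.078 and 0.46 in Neo and between -0.074 and 0.37 in HDAC4, with a difference of -0.081 ± 0.15 (SE; 95% interval -0.42 to 0.26). A change in Capn2 of the size seen for Capn3 probe M300005566 is outside that interval.

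Dysferlin was well above the reference in every sample and did not pass. Its 1 testable probe, M300008942, stood at 3.46, 3.55, 3.47 and 3.32 in Neo and at 3.67, 3.11, 2.83 and 3.40 in HDAC4. Neo values lay close together (3.45 ± 0.10, SD, n = 4), and the HDAC4 values (3.25 ± 0.36, SD, n = 4) reached both above and below them. The difference was -0.20 ± 0.18 (SE; 95% interval -0.62 to 0.21; limma adjusted p = 0.897), lower in 2 of 4 pairs. All but 1 of the 8 values were at the reference floor, and the difference became 0.35 once the floor offset was removed, so its sign is not settled. Of the other Dysf probes, M300008941 had a single value, -0.014 on Neo replicate 1, and M300008943 and M300008944 had none. The named genes most like Dysf in profile were Rnf115, Cilk1 and Exd2, at 0.091, 0.095 and 0.10 log2 units over 8 arrays. Dysf itself spread by only 0.25 (root mean square about its own mean), and the median distance over 9571 named probes was 0.32. Unlike Dysf, these genes had no value at the floor.

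Myoferlin, the ferlin of fusing myoblasts, lay below the reference and was among the steadiest members. Myof stood at -0.72, -0.69, -0.64 and -0.52 in Neo and at -0.44, -0.66, -0.64 and -0.67 in HDAC4. Its difference was 0.039 ± 0.12 (SE; 95% interval -0.23 to 0.31; limma adjusted p = 0.973), and no value was at the floor. The Dysf and Myof intervals overlap, and a difference between these probes was not tested.

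None of the 4 annexins passed. Anxa6, the large annexin with a doubled core, stood at 3.23, 2.40, 2.76 and 2.56 in Neo and at 2.50, 1.95, 2.30 and 2.11 in HDAC4. The groups overlapped through HDAC4 replicate 1 alone, which lay above Neo replicate 2. Within same-numbered pairs HDAC4 was lower by 0.73, 0.45, 0.46 and 0.44. The difference was -0.52 ± 0.20 (SE; 95% interval -0.98 to -0.065), 1.43-fold lower in HDAC4, with a limma adjusted p of 0.639 and an exact permutation p of 0.0571. The adjusted p was 0.206 with the replicate block and 0.129 with the batch, within a range of 0.129 to 0.990 over 20 alternatives. Of its 8 values 7 were at the floor, and the difference became 0.030 once the floor offset was removed. Of the 161 probes always at the floor below a ratio of 100, 92 had a difference as low or lower.

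Anxa2, which pairs with S100a10 and collects at membrane tears, varied more within the groups than any other tested member. It stood at -0.87, -0.78, 0.97 and -0.96 in Neo and at -0.76, 0.37, 1.52 and 0.33 in HDAC4. A low level, between -0.96 and -0.76, was shared by 3 Neo arrays and HDAC4 replicate 1, and Neo replicate 3 lay with the other HDAC4 arrays. HDAC4 was higher in 4 of 4 pairs, by 0.10 to 1.28, but the difference of 0.77 ± 0.53 (SE) had a 95% interval of -0.42 to 1.96 (limma adjusted p = 0.870; exact permutation p = 0.286). With the replicate number as a block the interval was 0.26 to 1.28 (SE 0.21), and the adjusted p of 0.265 did not pass. No Anxa2 value was at the floor. Its partner S100a10 lay between -0.54 and -0.35 in Neo and between -0.94 and -0.40 in HDAC4, a difference of -0.31 ± 0.15 (SE; limma adjusted p = 0.755), so its arrays did not follow those of Anxa2. The named genes most like Anxa2 in profile, Stk10, Ldb1 and Wnt9a, were 0.49 to 0.52 log2 units away, against a spread of 0.89 for Anxa2 itself (root mean square about its own mean).

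Anxa1 and Anxa5, which are widely expressed, lay below the reference on all 8 arrays. Anxa1 ranged from -1.06 to -0.67 in Neo and from -0.94 to -0.58 in HDAC4, with a difference of 0.053 ± 0.14 (SE; 95% interval -0.26 to 0.37). Anxa5 ranged from -1.02 to -0.59 in Neo and from -1.01 to -0.34 in HDAC4, with a difference of -0.028 ± 0.18 (SE; 95% interval -0.44 to 0.38). The limma adjusted p was 0.969 and 0.988. Neither had a value at the floor, and the intervals leave room for changes of up to about 0.4 in either direction.

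**Figure D3:**
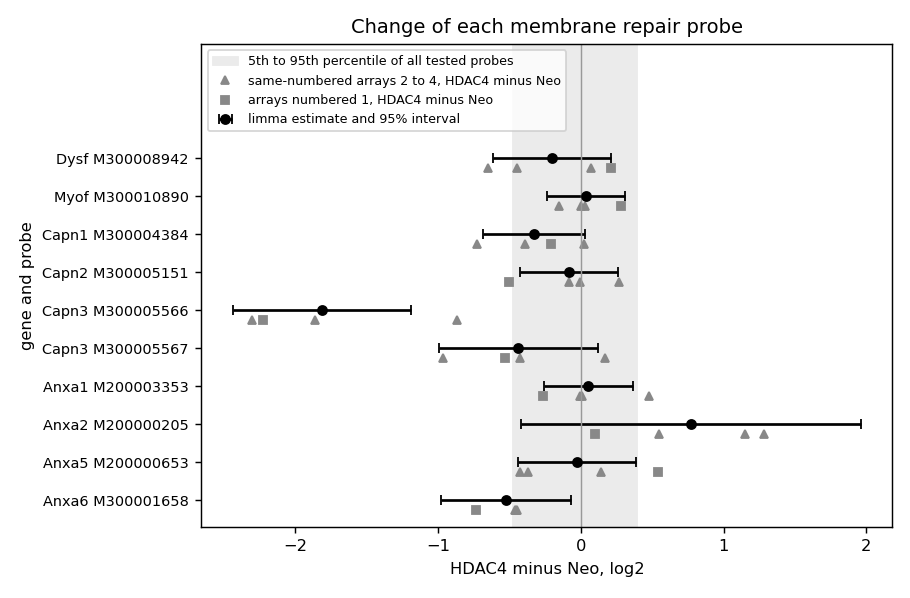
HDAC4 minus Neo on the log2 scale (horizontal axis) for each tested member probe: black points and bars are the limma estimate and its 95% interval, grey symbols the differences within same-numbered arrays, and the grey band the 5th to 95th percentile of all tested probes, -0.47 to 0.39. Pairing beyond number 1 is not shown, so the grey symbols are a description only. Capn3 probe M300005566 at -1.81 lies outside the band with all 4 pairs below it. Anxa6 at -0.52 and Anxa2 at 0.77 also lie outside the band, and the intervals of 8 of the 10 probes include 0.

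Other genes of repair, listed with earlier results of these data known, were examined in the same fit. The 7 lists held 75 probes, of which 50 from 45 genes were tested. None passed in limma. At an unadjusted p under 0.05 there were 3 lower and 2 higher probes, or 10% against the background of 7.03%. The median difference of the 50 probes was -0.054, and 30 were lower. The groups did not overlap in 3 probes lower in HDAC4 (Cav3, Anxa3 and Snap23) and 2 higher (Capn6 and Pdcd6ip probe M200006672). That is 10% of the tested probes, against 5.25% of all tested probes. Cav3, the muscle caveolin that binds dysferlin, had the lowest adjusted p, 0.122. It stood between 7.08 and 7.79 in Neo and between 5.98 and 6.67 in HDAC4, a difference of -1.10 ± 0.21 (SE), with 3 of 8 values at the floor and 5 with ratios of 100 or more, where the floor cannot be told. The 3 floor values were those of HDAC4 replicates 2 to 4. With the batch the limma adjusted p of Cav3 was 0.0103, without both arrays numbered 1 it was 0.0161 and without HDAC4 replicate 1 it was 0.0392. It did not pass in any other setting, among them the replicate block, quantile normalization and the floor offset removed.

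Among the 8 remaining annexins, 6 probes of 5 genes were tested. Anxa3 had a difference of -0.46 ± 0.16 (SE; limma adjusted p = 0.574), with all HDAC4 values below Neo and none at the floor. Anxa7 had -0.53 ± 0.23 (SE; adjusted p = 0.702) and Anxa11 0.31 ± 0.14 (SE; adjusted p = 0.710). Of the S100 proteins that bind annexins, 5 of 6 probes were lower and none passed, S100a11 and S100a4 having -0.24 and -0.17. The single tested probe of another ferlin, Fer1l4, gave 0.043 ± 0.25 (SE).

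The other calpains went both ways, with 4 of 6 tested probes lower. Capn6, a calpain that lacks the catalytic cysteine, stood at 1.71, 1.67, 1.81 and 1.50 in Neo and at 2.36, 2.40, 2.13 and 1.83 in HDAC4. All HDAC4 values lay above Neo, none was at the floor, and the difference was 0.51 ± 0.16 (SE; limma adjusted p = 0.471), opposite in sign to that of Capn3. Capn5 gave -0.46 and Capns1, the small subunit shared by Capn1 and Capn2, 0.25. Calpastatin (Cast), the inhibitor of Capn1 and Capn2, gave -0.0011 ± 0.17 (SE). None of these passed.

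Of the partners of the ferlins and Trim72, 10 of 15 probes were lower, with a median of -0.079. Cavin4, the muscle cavin, gave -0.44 ± 0.21 (SE; limma adjusted p = 0.748). The first Cavin1 probe gave 0.48 ± 0.41 (SE; adjusted p = 0.895) and the second -0.08 ± 0.24 (SE), so the probes of this adaptor of Trim72 disagree in sign. The ESCRT machinery, which pinches off damaged membrane, had 4 of 10 probes lower and a median of 0.088. Its recruiter Pdcd6ip, known as ALIX, gave 0.21 ± 0.12 and 0.77 ± 0.39 (SE) from 2 probes, with adjusted p of 0.803 and 0.773, and Tsg101 gave 0.21. The vesicle exocytosis genes had 3 of 6 probes lower, led by Snap23 at -0.25 ± 0.14 (SE; adjusted p = 0.805), with Stx4a at -0.12 and Vamp2 at 0.091.

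**Figure D4:**
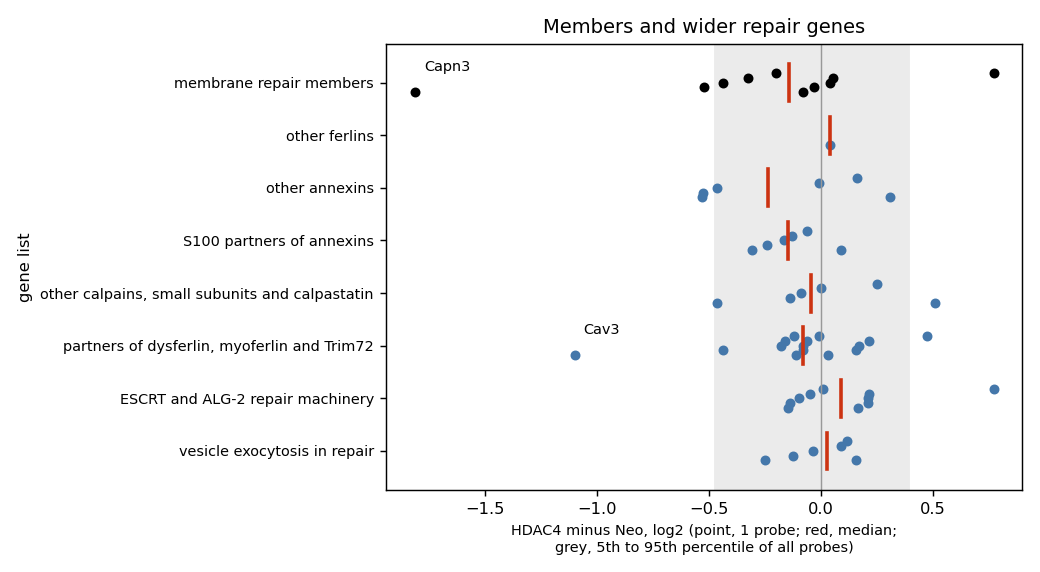
HDAC4 minus Neo on the log2 scale (horizontal axis) for every tested probe of the members and of the 7 wider repair lists, 1 point per probe, with the median of each list as a red line and the 5th to 95th percentile of all tested probes in grey. Only Capn3 at -1.81 and Cav3 at -1.10 lie below -1 in these lists, and the list medians lie between -0.24 and 0.088.

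Markers of the cells were compared beside these results. The mean log2 ratio over 6 probes of differentiated muscle (Ckm, Tnni2, Myog, Des and 2 of Tnnt3) lay between 8.17 and 8.42 in Neo and between 7.93 and 8.34 in HDAC4. All 8 values of each, but 5 for Des, had ratios of 100 or more, where the floor cannot be told. Another Tnnt3 probe, M300001730, lacked values and is not in that mean. It stood at 1.96 and 1.80 on Neo replicates 2 and 3 and at 1.19, 0.83 and 0.35 on HDAC4 replicates 2 to 4, all at the floor. For 4 probes of undifferentiated or cycling cells (Cd34, Mki67, Cdk1 and Top2a) it lay between -3.44 and -3.19 in Neo and between -3.42 and -2.69 in HDAC4. The myoblast gene Myf5 lacked a value on HDAC4 replicate 2 and is not in that mean. It averaged 1.49 in Neo and 1.09 in HDAC4, a difference of -0.40 (limma adjusted p = 0.814). Pax7 had no value. For 3 fibroblast probes the mean lay between -3.70 and -2.36 in Neo and between -2.94 and -1.66 in HDAC4. The lowest mean of each group was on its array numbered 1. The highest was on HDAC4 replicate 3, where Pdgfra stood at -2.19, against -4.62 to -3.93 on the other HDAC4 arrays. All 4 tested fibroblast probes were higher in HDAC4, against 8275 of all 16748, and in each the groups overlapped. Thy1 alone had an unadjusted p under 0.05 (limma adjusted p = 0.710), against a background of 7.03% of all tested probes. Adipocyte and liver markers were not testable: Adipoq, Plin1, Tat and Cyp2e1 had no value on any array. The adipocyte gene Fabp4 had values in Neo only, on 3 arrays with 1 probe (-1.25 to -0.77) and on Neo replicate 4 with another (-1.47). The liver genes Apoa1, at -0.014 and 0.37 on Neo replicates 1 and 3, and Ttr, at 0.46 on Neo replicate 4, had no other value, and these 3 values were at the reference floor. The values of Apoa1 and Ttr showed no reference signal above the floor, where liver RNA should give one, but they are few and the floor is inferred. The missing values cannot decide the liver source given in the labels, because the filtering is not stated. The tissue of the reference was not tested and is not settled here. The part of the fibroblast markers in the member differences was not tested. In these bulk samples, fewer cells of a type and less RNA per cell cannot be told apart.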

How the data were processed

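Total RNA of 8 C2C12 samples was measured on 2-colour arrays, 10 µg of RNA being DNase treated and labelled from oligo dT primers, per the labels' protocols. The values are log2 ratios, as deposited, with 1 for each probe on an array. How they were background corrected, normalized and filtered, and with which software, is not stated by the labels. Deposited column medians lay between 0.00576 and 0.0286. The number of arrays limits the precision.

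Each array was centred on its median. Probes were named from the platform annotation (18976 with 1 gene, 404 with several, 12389 not listed), and symbols were updated through the RefSeq table of GRCm38.p6, which also gave the promoter sequences. Each probe with at least 3 values in each group was fitted on its own with limma 3.58.1 in R 4.3.3 (lmFit, eBayes), HDAC4 against Neo, with Benjamini-Hochberg adjustment over all 16748 probes at 0.05. Probes were not averaged, because probes of a gene lie at different levels and lack values on different arrays. The script was tested on simulated data. A value was taken to be at the reference floor where 10 times the ratio was whole within 0.001 and at least 10, which rounding makes void from a ratio of 100. Alternatives covered normalization, missing values, probe averaging, the floor, the replicate number as a block, the arrays numbered 1, and each array left out. Fits with arrays left out used the same probes with at least 2 values in each group.

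Same-numbered arrays deviated together from their group means, with correlations of 0.53, 0.31, 0.21 and 0.11 for numbers 1 to 4 over 14746 probes. All 4 exceeded the limit of 0.1 used for pairing, but arrays numbered 2 to 4 also correlated across numbers. Neo replicate 2 was the closest Neo array to HDAC4 replicates 3 and 4 (0.22 and 0.27). With the arrays numbered 1 apart in both groups, deviations of the others from a group mean tend to agree whatever their number. Pairing beyond number 1 is therefore not shown, and same-numbered pairs 2 to 4 are a description only.

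The members and lists were chosen with earlier results of these data known. The text names every member probe, the 3 probes with the smallest p in each wider list, those past the threshold, and the 3 genes nearest in profile to Dysf, Capn3 and Anxa2; Cast, the second Cavin1 probe and the probes in the closing section were added after their values were seen.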

Additional observations from a re-analysis of the deposited data

Results flagged for a closer look

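Dixon's test at its 95% critical value picked out a sample far from the others in 2 of 21 member groups with 4 values, and chance picks out about 1 in 20. Neo replicate 3 of Anxa2, at 0.97, lay far above the next Neo value of -0.78. HDAC4 replicate 1 of Myof, at -0.44, lay above the next HDAC4 value of -0.64, a gap of small absolute size. The cause was not tested in either case.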

How the results depend on the processing

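Over all probes, 21 passed as reported. The count was 108 with the arrays numbered 1 as a batch, 323 without both of them, 9 with the replicate block, 1 with floor values left out and 0 with the floor offset removed (1145 at an unadjusted p under 0.05 in limma), and 0 to 100 with 1 array left out, with 863 to 2218 at an unadjusted p. Among member probes the count was 0 as reported, 1 with quantile normalization, 1 with the batch and 0 to 1 with 1 array left out, Capn3 M300005566 each time. In the wider list it was 0 as reported, 1 with the batch, 1 without both arrays numbered 1 and 0 to 1 with 1 array left out, Cav3 each time. The replicate block (3 residual degrees of freedom, 6 without it) changed no call among the members or the wider list. With the floor taken only below a ratio of 100, chosen after seeing the data, 0 probes passed with its offset removed (1142 at an unadjusted p) and 1 with floor values left out, and Dysf turned to 0.37 and Anxa6 to 0.054 with the offset. With batch and floor offset together, also chosen after seeing the data, no member or wider probe passed, and Capn3 had -1.40 (adjusted p = 0.0548).

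Both Capn3 probes, Capn1 and Anxa2 kept their sign in all alternatives run, and the other 6 tested probes did not. Dysf turned to 0.23 in the mean over probes, where 1 Neo array brings in a weaker probe, and to 0.35 with the floor offset removed, with or without the batch. Anxa6 turned to 0.030 with the offset removed, with or without the batch. Without both arrays numbered 1, Myof turned to -0.041 and Capn2 to 0.060. With 1 array left out, Myof ranged from -0.015 to 0.080, Capn2 from -0.16 to 0.021, Anxa1 from -0.022 to 0.12 and Anxa5 from -0.18 to 0.042. With floor values left out, Capn3 M300005566, Capn1, Dysf and Anxa6 could not be tested.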

Other observations

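Of the 25 probes of the wider repair lists that could not be tested, 12 had no value, 10 had more values in Neo and 3 had more in HDAC4. Among all 7949 untested probes with a value, 82.2% had more values in Neo and 8.57% more in HDAC4. The genes named next were picked after their values were seen. Syt7, the calcium sensor of lysosome exocytosis, had values on 3 Neo arrays with 1 probe and on 2 with the other, and on 0 HDAC4 arrays. Anxa9 had 4 Neo values and 1 HDAC4 value, at -1.51, below 3 of the 4 Neo values. Capn8, a calpain known from the stomach, had values in HDAC4 only, on 2 arrays with 1 probe and 1 with another. No label says why values are missing. The presence of these values was not tested.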
